A study of Arabidopsis thaliana with 2 samples.

Results

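Among the 4173 singly named probe sets bright enough to pass an expression filter, 6 were at least 2-fold higher in rosette leaves of the Arabidopsis double knockout KO-HsfA1d/A1e than in wild-type leaves after high light. These 6 transcripts are described here. They are AT3G29970, SIS, AT4G33380, OSM34, AT4G16260 and AT2G04050. With or without the filter, 9063 genes had a probe set naming that gene alone, among 16541 probe sets in all. Each of the 6 was measured by 1 probe set. The members were chosen by their difference between these same arrays, so that difference is given below as a description and with no test.

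The mutant plants carried the double knockout of HsfA1d and HsfA1e, and the plants set against them were wild type. Both genotypes were of the Columbia strain and were grown on MS medium, in day cycles of 16 h light (25°C) and 8 h dark (22°C) at a light level of 100 µE per square metre per second. At 2 weeks of age both were given 30 min of high light, at 400 µE per square metre per second and 25°C, before rosette leaves were taken. The labels name neither the mutant alleles nor the number of plants behind an array, and each genotype had 1 array, labelled as biological replicate 1. Plants without high light were not analysed here, so every difference is between genotypes and none is a response to light.

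HsfA1d and HsfA1e are heat shock factors of class A1, transcription factors that start the heat shock response by binding upstream of chaperone genes. Osmotin and other thaumatin-like proteins, and the beta-1,3-glucanases that cut callose and fungal cell walls, include the classical pathogenesis-related proteins of plants. Osmotin was first described in tobacco cells adapted to salt. Carriers of the MATE family move small organic compounds, toxins among them, out of the cytosol. The question set for these genes was whether other osmotic or defence genes had the same direction in the double knockout.

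Most measured defence genes other than OSM34 and AT4G16260 had the lower value in the mutant, while the measured osmotic genes other than SIS split evenly, 2 higher and 2 lower. The lists of osmotic, salt and drought genes and of salicylate- and of jasmonate- and ethylene-linked defence genes held 100 loci. Leaving out SIS, OSM34 and AT4G16260, 12 of these loci were measured, of which 3 had the higher value in the mutant and 9 the lower. Their median log2 difference, mutant minus wild type, was -0.30, beside 0.035 over all 9063 measured genes, of which 55.4% had the higher value in the mutant. Of the 12, 0 reached 2-fold on the higher side, where the share over all measured genes was 0.817%. CHI and GRX480 had mutant values at least 2-fold lower, where that share was 2.06%. GRX480 was too dim to pass the expression filter. Past the filter were 7 of the 12, 2 with the higher value in the mutant and 5 with the lower.

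The deposited values are linear intensities, and a difference is in log2(intensity + 16), which understates the change of dim probe sets. Fold values are ratios of the intensities without the added 16. The expression filter kept probe sets with a mean log2 value of 8.44 or more, the median over all probe sets, which is an intensity of 332. A single array for each genotype gives neither a replicate error nor a test, and the number of arrays limits the precision. Median intensity over all probe sets was 332 on the mutant array and 334 on the wild-type array. No probe set named HsfA1d or HsfA1e alone, so the genotype labels were not checked on the deleted genes. In leaf RNA as a whole, fewer cells of a type and less RNA per cell cannot be told apart.

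Among the 4173 singly named probe sets past the filter, the 6 members make up 0.144%, a share that their own selection sets. In the opposite direction, 53 of the 4173, or 1.27%, had a mutant value lower by 2-fold or more. Among all 8271 probe sets past the filter, 10 (0.121%) were at least 2-fold higher and 114 (1.38%) at least 2-fold lower. The other 4 of the 10 could not be assigned to a gene, since 2 had no name and 2 had several names. Their differences were 1.51 and 1.42 for the unnamed and 1.26 and 1.01 for those with several names.

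OSM34 (locus AT4G11650, chromosome 4), which encodes the pathogenesis-related protein osmotin 34, had an intensity of 3581 in the mutant, against 1544 in the wild type. The mutant value was 2.32-fold that of the wild type, a log2 difference of 1.21. AT4G16260 (chromosome 4), of the glucanase family, had 2412 in the mutant, against 1140.4 in the wild type. That is a 2.11-fold higher intensity and a log2 difference of 1.07. For both genes, the values on both arrays lay above the filter's intensity.

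SIS (AT5G02020, chromosome 5), named for induction by salt and for a serine-rich product, had 868 in the mutant, against 272 in the wild type. The mutant value was 3.20-fold that of the wild type, a log2 difference of 1.62. AT2G04050 (chromosome 2), which encodes a MATE-type efflux carrier, had 508 in the mutant, against 243 in the wild type. Its ratio of 2.09 and log2 difference of 1.02 were the lowest of the 6, and it was under 2-fold after loess (0.99) and with a pseudocount of 64 (0.90). It was also under 2-fold when differences were centred on their median (0.98), an alternative chosen after seeing the data.

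AT3G29970 (chromosome 3) had 1216 in the mutant, against 275 in the wild type, and the highest ratio of the 6. The mutant value was 4.42-fold that of the wild type, a log2 difference of 2.08. AT4G33380 (chromosome 4) had 1723 in the mutant, against 731 in the wild type. Its ratio was 2.36 and its log2 difference 1.22. The gene table used here gives neither of these loci a symbol beyond its locus tag, and no role is given for AT4G33380. AT3G29970, SIS and AT2G04050 were dimmer than the filter's intensity in the wild type and past it in the mutant, so these 3 passed the filter through the mutant array.

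**Figure D1:**
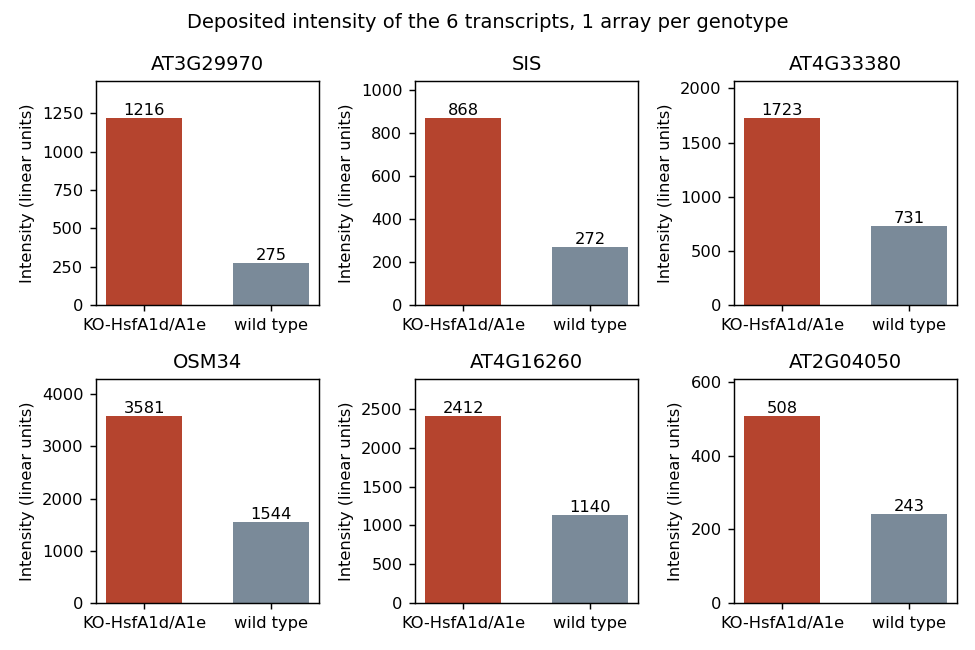
Deposited intensity (linear units, axes from 0) of each of the 6 transcripts on the mutant array (left bar) and the wild-type array (right bar), with 1 array per genotype and so no error bars. The mutant bar is the higher in each panel, from 2.09-fold for AT2G04050 to 4.42-fold for AT3G29970; panels have their own scale and are not to be compared in height.

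In the order of differences, AT3G29970 stood 0.46 log2 units above SIS, and SIS stood 0.40 above AT4G33380. The other 4 lay closer together. The gap from AT4G33380 to OSM34 was 0.014, from OSM34 to AT4G16260 0.14, and from AT4G16260 to AT2G04050 0.052. The only error estimate within these arrays comes from genes with a pair of probe sets. Over the 13 such genes past the filter, the differences of a gene's probe sets had an SD of 0.20 around their mean. Gaps among the lower 4 were under that SD, so their order is not resolved. A gap carries the error of both its genes and so varies more than this SD. Whether the larger gaps above the lower 4 are resolved was not tested. Variation between plants, and errors common to all probe sets of an array, are not part of this SD.

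The members stand outside the bulk of probe sets of like brightness, as their selection implies. For AT3G29970, 842 singly named probe sets had a mean log2 value within 0.25 of its own, and the central 90% of their differences ran from -0.41 to 0.46. Only AT3G29970 and SIS were at least 2-fold higher among them. For OSM34, the 249 probe sets of like brightness had a central 90% from -0.34 to 0.41, and OSM34 alone was at least 2-fold higher. AT4G33380 and AT4G16260 were likewise the only ones at least 2-fold higher among the 565 and 380 probe sets of like brightness. For AT2G04050, close to the filter, only the 644 probe sets past the filter were counted, and it alone was at least 2-fold higher. Below the filter but within 0.25 of its mean lay AT5G57760, which was also at least 2-fold higher, with a difference of 1.05.

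**Figure D2:**
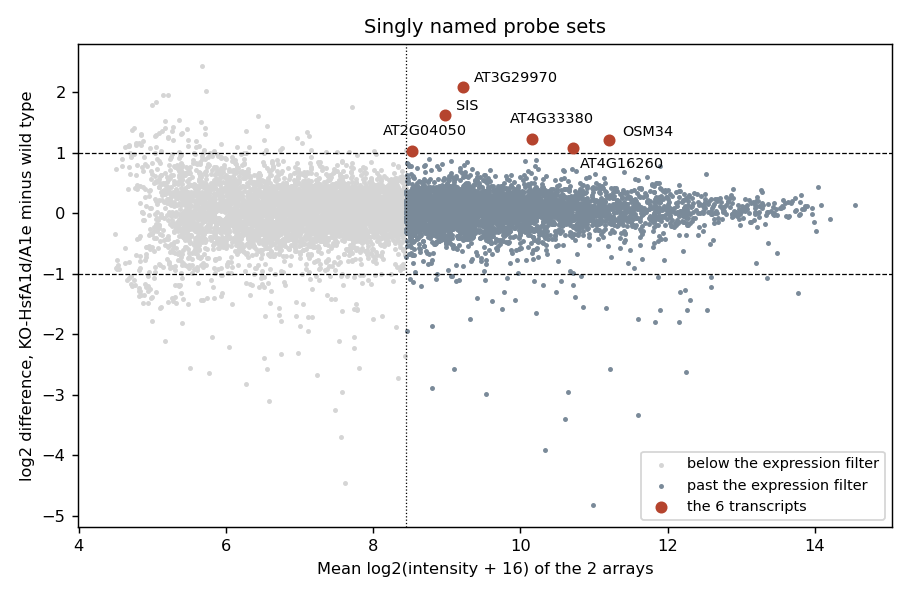
Log2 difference (mutant minus wild type) against mean log2(intensity + 16) for every singly named probe set, with dashed lines at 2-fold and a dotted line at the expression filter, 8.44. The 6 transcripts are the red points, whose differences of 1.02 to 2.08 lie past the upper dashed line. Past the filter, 53 probe sets lie at or below the lower dashed line.

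Just outside the threshold lay AT3G15310, with 578 in the mutant and 303 in the wild type, a difference of 0.90, which is 0.12 below that of AT2G04050. AT5G48490 had a difference of 0.88 and AT1G75800, a thaumatin-like protein gene, one of 0.86. AT4G35720 had 0.85, ATRER1C1 0.84 and AT1G26920 0.83. The threshold thus fell in a gap of 0.12, below which the values were closely spaced. At 1.5-fold 69 singly named probe sets were higher in the mutant and 119 lower.

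The filter excluded other candidates by its own level. AT5G57760 had 484 in the mutant and 226 in the wild type, a difference of 1.05, and its mean of 8.44 missed the filter before rounding. AT5G50335 had 369 in the mutant and 98.2 in the wild type (1.75). AMY1, an alpha-amylase-like gene, had 354 in the mutant and 165 in the wild type (1.03). These 3 would have joined the 6 had the filter been set on the brighter array, and all were picked with their values in view. With no filter, 74 of the 9063 genes reached 2-fold on the higher side and 187 on the lower.

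For each member, the most similar pair of log2 values among singly named genes past the filter, leaving out all members, was found by Euclidean distance. With only 2 arrays this likeness says little more than that the genes have a similar level and difference. AT1G26920 lay 0.16 from AT2G04050, AT1G73920 lay 0.25 from AT4G16260, and AT5G48490 lay 0.25 from AT4G33380. AT2G20230 lay 0.46 from OSM34, AT4G35720 lay 0.56 from SIS, and ATRER1C1 lay 0.88 from AT3G29970. AT3G29970 had the most distant of these genes, which the exclusion of members largely set. The highest difference outside the members was 0.90, so the member at 2.08 had to lie far from all of them. SIS, left out as a member, had log2 values of 9.79 in the mutant and 8.17 in the wild type. Those of AT3G29970 were 10.27 and 8.18. The distance therefore does not show that AT3G29970 stands apart.

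The relatives of OSM34 differed among themselves. Of 24 thaumatin-like protein genes listed, 12 were measured, of which 5 had the higher value in the mutant and 7 the lower. OSM34 was the only one at least 2-fold higher, which its selection set, and 0 were at least 2-fold lower. Over all measured genes the shares were 0.817% higher and 2.06% lower, so these counts say little about the family. The median difference of the 12 was -0.035, and it was 0.44 over the 5 past the filter, which include OSM34. AT1G75800 came closest to OSM34, with 1420.1 in the mutant and 776 in the wild type (0.86). AT4G38660 had 703 in the mutant and 513 in the wild type (0.44). The remaining pair past the filter had small differences of the other sign. ATLP-1 had 536 in the mutant and 622 in the wild type (-0.21), and AT2G28790 had 1189.8 in the mutant and 1395 in the wild type (-0.23). The 7 dimmer relatives ran from -0.56 for AT5G24620 to 0.35 for AT1G20030. The salicylate marker PR5, the best known of these genes, was not among the measured ones.

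Among the beta-1,3-glucanases past the filter, AT4G16260 was the only one at least 2-fold higher in the mutant, which the selection set. The 6 members are all the singly named probe sets past the filter that were higher by that much. Of 50 genes listed, 25 were measured, 13 with the higher value in the mutant and 12 with the lower. Their median difference was 0.012, and it was -0.030 over the 12 past the filter, of which 6 had the higher value and 6 the lower. AT2G05790 had 2994 in the mutant and 2515 in the wild type (0.25), and AT5G58480 had 769 in the mutant and 548 in the wild type (0.48). On the other side, AT4G34480 had 343 in the mutant and 552 in the wild type (-0.66), and AT5G55180 had 435 in the mutant and 638 in the wild type (-0.53). The other 7 past the filter lay between AT2G26600 at -0.44 and AT4G31140 at 0.18. Of the dim members, AT3G04010 had the highest difference, 0.82, with 77.3 in the mutant and 37.0 in the wild type. Its ratio without the added 16 was 2.09, close to that of AT4G16260. The pathogenesis-related glucanase PR2 and its neighbour genes BG1 and BG3 were not measured.

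Without AT2G04050, which was chosen for its difference, 11 of 28 measured MATE carriers had the higher value in the mutant. The median of those 28 was -0.071. Of 57 genes listed, 29 were measured, 12 with the higher value in the mutant and 17 with the lower, and their median difference was -0.034. Of the 12 past the filter, only AT2G04050 was at least 2-fold higher, which its selection set. AT3G23550 was at least 2-fold lower, where the share over singly named probe sets past the filter was 1.27%. AT3G23550 had 217 in the mutant and 831 in the wild type, a difference of -1.86. The other 10 past the filter ran from -0.54 for AT5G52450, with 669 in the mutant and 981 in the wild type, to 0.34 for AT1G47530, with 3067 in the mutant and 2424 in the wild type. Among the dim ones, AT1G71140 had 116 in the mutant and 256 in the wild type (-1.04). AT3G03620 had 25.0 in the mutant and 2.46 in the wild type (1.15), both under the lowest 5% of their arrays, whose limits were 31.9 on the mutant array and 31.7 on the wild-type array. The gene table places AT2G04050 next to another carrier gene, DTX1, which was not measured. A further carrier 5 protein-coding genes away, AT2G04070, had 46.0 in the mutant and 32.2 in the wild type (0.36).

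AT3G29970 and AT3G48140 were listed together as genes of B12D proteins, small proteins first described in barley grains. AT3G48140 had 12280.0 in the mutant and 12695 in the wild type, a difference of -0.048, against 2.08 for AT3G29970. Their median, 1.02, is the midpoint of unlike values. B12D genes have been linked to flooding in rice, and 6 of 12 listed low-oxygen genes were measured. Of the 6, 3 had the higher value in the mutant and 3 the lower, with a median of -0.13. The only one past the filter, AT3G10020, had 1675 in the mutant and 5667 in the wild type (-1.75). The dim AT5G10040 had 135 in the mutant and 33.7 in the wild type (1.60). The other 4 ran from -0.42 for AT3G27220, with AT4G33560 at -0.33 and AT1G33055 at 0.069, to 0.12 for AT4G10270.

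SIS was set beside other genes of salt, drought and osmotic stress. Of 48 genes listed, 5 were measured including SIS, 3 with the higher value in the mutant and 2 with the lower, and the median was 0.044. Without SIS the other 4 split evenly, with a median of -0.056. The dehydrin COR47 had 3935 in the mutant and 3815 in the wild type (0.044). The cold-regulated COR15A, which encodes a chloroplast-protecting protein, had 344 in the mutant and 385 in the wild type (-0.16). Its dim relative COR15B had 92.4 in the mutant and 141 in the wild type (-0.53), while the dim dehydrin LTI30 had 129 in the mutant and 87.6 in the wild type (0.49). SIS was at 2-fold by its selection, and none of the other 4 reached 2-fold in either direction. Over all measured genes the shares were 0.817% higher and 2.06% lower, so this count says little about the list.

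Measured genes of salicylate-linked defence all had the lower value in the mutant. Of 26 listed, 3 were measured, with a median of -0.65, and 1 was past the filter. This was WRKY53, a transcription factor of senescence and defence, with 277 in the mutant and 444 in the wild type (-0.65). GRX480, a glutaredoxin that interacts with TGA factors, had 42.7 in the mutant and 173 in the wild type (-1.68). SAG101, a partner of EDS1 in immune signalling, had 54.0 in the mutant and 61.4 in the wild type (-0.14).

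In the jasmonate- and ethylene-linked defence list, most measured genes other than OSM34 and AT4G16260 had the lower value in the mutant. The higher values of OSM34 and AT4G16260 were set by their selection. Of 26 listed, 7 were measured, 3 with the higher value in the mutant and 4 with the lower. Their median was -0.21, and it was 0.074 over the 6 past the filter. Without OSM34 and AT4G16260, 1 of 5 had the higher value in the mutant and the median was -0.38. The defensin gene PDF1.2 had 3298 in the mutant and 4301 in the wild type (-0.38), and PDF1.2b had 2711 in the mutant and 3135 in the wild type (-0.21). The thionin gene THI2.1 had 149 in the mutant and 242 in the wild type (-0.64). CHI, locus AT2G43570 of the chitinase family, had 302 in the mutant and 658 in the wild type (-1.08). The exception was AT2G38870, a proteinase inhibitor gene, with 3264 in the mutant and 2545 in the wild type (0.36).

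AT2G04050 was also listed with detoxification genes, of which 2 of 14 were measured. The higher value of AT2G04050 in the mutant was set by its selection. The other measured gene was GSTU25, a glutathione S-transferase of the tau class, with 90.3 in the mutant and 10.3 in the wild type (2.01). The wild-type value lay under the lowest 5% of that array, so the size of this difference depends on the pseudocount. The median of these 2 was 1.52, 2.03 with a pseudocount of 1 and 0.98 with one of 64.

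**Figure D3:**
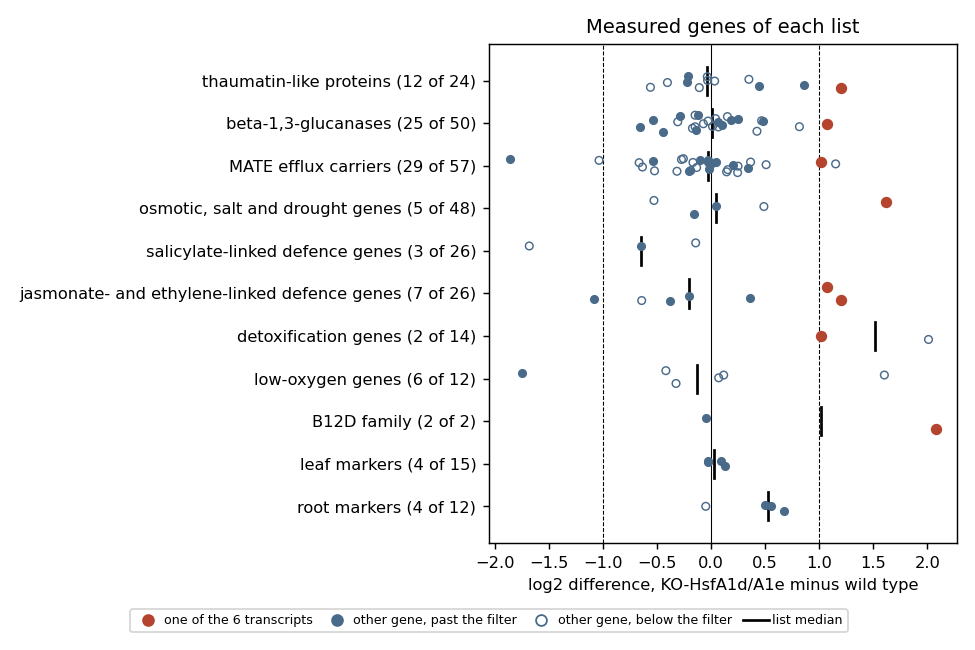
Log2 difference (mutant minus wild type) of every measured gene in each list, with the number measured of those listed in brackets, filled points past the expression filter, open points below it, and a bar at the list median. The red points, which are the members, lie at or beyond the 2-fold line on the right of each list that holds one, while the other genes of the thaumatin-like, glucanase and MATE lists centre near 0. Vertical position within a list is random.

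Among the measured root markers, PYK10 and its partner lectins had higher values in the mutant, while AT4G30170 did not. Of 12 root markers listed, 4 were measured, and the 3 past the filter were all higher in the mutant, each by less than 2-fold. Over all singly named genes past the filter, 57.7% had the higher value in the mutant. PYK10, which encodes the main beta-glucosidase of root endoplasmic reticulum bodies, had 3758 in the mutant and 2555 in the wild type (0.55). Its partners JAL33 and JAL34, jacalin-related lectins, had differences of 0.50 and 0.67. AT4G30170, a peroxidase gene, had 30.5 in the mutant and 32.2 in the wild type, near the lowest 5% of both arrays, and the summed intensity of the list was 5324 in the mutant and 3606 in the wild type. Leaf markers differed less. Of 15 listed, 4 were measured, with differences from -0.034 to 0.13 and a summed intensity of 51843 in the mutant and 50161 in the wild type. The part of root markers in the higher values of the 6 transcripts was not tested.

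The 6 transcripts did not come from a shared stretch of the genome. Of them, 3 lay on chromosome 4 and 1 each on chromosomes 2, 3 and 5, and the gene table places none within 5 protein-coding genes of another. Of the 60 protein-coding neighbours, 5 on each side of a member, 16 were measured, of which 5 were past the filter. None of the 16 differed by 2-fold. Over all measured genes those shares were 0.817% higher and 2.06% lower, so a count of 0 among 16 says little about the neighbours. The differences of the 16 ran from -0.43 for FLDH, beside AT4G33380, to 0.36 for AT2G04070, and their median was 0.047. The gene of another heat shock factor, AT-HSFB2B, is the third protein-coding gene after OSM34 and was not measured.

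Across scalings and pseudocounts, the differences of 5 members stayed past 2-fold. They ran from 1.92 to 2.14 for AT3G29970, from 1.47 to 1.67 for SIS and from 1.17 to 1.24 for AT4G33380. OSM34 ran from 1.17 to 1.21 and AT4G16260 from 1.03 to 1.08. AT2G04050 ran from 0.90 to 1.06 and so lay on both sides of the threshold.

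**Figure D4:**
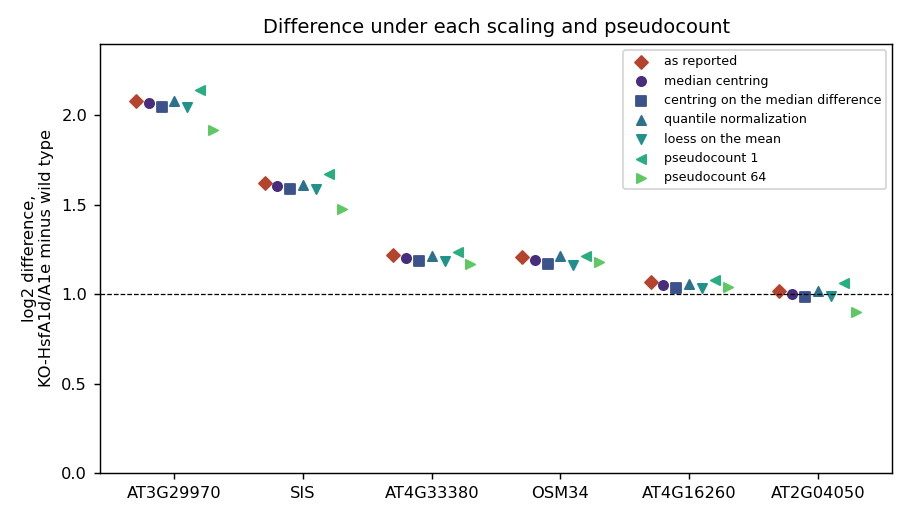
Log2 difference (mutant minus wild type) of each of the 6 transcripts as reported and under each alternative scaling and pseudocount, with a dashed line at 2-fold. All points of AT3G29970, SIS, AT4G33380, OSM34 and AT4G16260 lie above the line, and those of AT2G04050 lie between 0.90 and 1.06.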

How the data were processed

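RNA of rosette leaves was measured on 1 Affymetrix array per genotype, and per the labels' protocols 100 ng of total RNA was turned into biotin-labelled cRNA with the Affymetrix 3'IVT Express kit. The deposited table holds a linear intensity for each probe set on each array. How the authors summarized, background-corrected and scaled them is not given in the sources used here. They carry no detection calls.

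Probe sets were named from the platform annotation of GEO, and Entrez identifiers led to current symbols in the gene table of TAIR10.1, which matched 9095 of 9139 singly named probe sets. Of the other probe sets, 340 had several names and 7062 had none and are unnamed here. The build behind the deposited values is not stated, so no coordinates are given.

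Differences are log2(intensity + 16), mutant minus wild type, computed with Python 3.11.15 and numpy 2.4.6. The values were used as deposited, since array medians past the filter differed by 0.016 on the log2 scale. A gene was represented by its brightest probe set naming it alone. The procedure was tested on simulated data.

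The members and the 11 gene lists were chosen with earlier results of these data known. List membership came from general knowledge of Arabidopsis genes, not from the files, and some genes stand in more than 1 list. Genes not measured may lie under unnamed probe sets. Named genes were the members, the next 6 differences and, for each member, the gene outside the 6 most like it. They also included measured relatives in the thaumatin-like, glucanase and MATE families, of which the dimmer are given by range. In each other list, up to 6 genes by brightness and any past 2-fold were named. Alternatives were median centring, quantile normalization, loess (span 0.3), pseudocounts of 1 and 64, other filters, no probe sets with the endings _s_at or _x_at, the mean over a gene's probe sets, and thresholds of 1.5-fold and 3-fold.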

Additional observations from a re-analysis of the deposited data

How the results depend on the processing

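No paired analysis was possible because there is a single array on each side, labelled replicate 1, which also means that no replicate could be left out. The 10 probe sets past 2-fold on the higher side became 127 with no filter, 3 with the filter at percentile 75, 16 with it on the brighter array, 129 at 1.5-fold and 2 at 3-fold. The 6 singly named ones became 75, 3, 9, 69 and 2 in the same order. These changes follow from the probe sets each setting admits. AT2G04050 was at 0.99 after loess, 0.90 with a pseudocount of 64 and 0.98 when centred on the median difference, which was chosen after seeing the data. Over list members past the filter alone, the median was 0.44 for thaumatin-like proteins, 0.074 for jasmonate- and ethylene-linked defence genes, 1.02 for detoxification genes and -1.75 for low-oxygen genes, each over fewer genes. The detoxification median was 2.03 with a pseudocount of 1 and 0.98 with one of 64. The glucanase and leaf marker medians, 0.012 and 0.028, turned sign in 3 and 2 of 7 alternatives, and lay between -0.030 and 0.031 throughout. Of 42 recomputed member differences 39 stayed past 2-fold. The 42 include the mean over a gene's probe sets, which could not change, since each member had 1 probe set. Of 22 counts 13 stayed within 1.5 times, and of 77 list medians 71 moved by less than the SD between probe sets of a gene, 0.20. The background of dim probe sets is unknown, and none of these settings replaces a replicate.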
